A study of Mus musculus with 2 samples.

Results

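Divergent gene-pair promoters are stretches of open chromatin that serve 2 protein-coding genes lying head to head on opposite strands. They were taken from ATAC-seq of monocytes by a fixed rule: a merged open region had to lie within 1 kb of the start of a minus-strand gene and of a plus-strand gene, with both genes transcribed away from each other and their starts at most 1 kb apart. On chromosomes 1 to 19 the authors' conservative peak set of the series held 27898 merged regions, and 1018 of them (3.65%) met the rule. These 1018 made up 9.88% of the 10306 regions within 1 kb of any protein-coding start. The rule used positions only, so strength and sequence did not enter it, while its distance limits bear on the width of a region and on where its summit can lie.

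The series measured monocytes from the peripheral blood of C57BL/6J mice, adults of 5 to 6 weeks. ATAC-seq uses the Tn5 transposase to insert sequencing adapters into DNA that nucleosomes leave free. There was 1 group of 2 biological replicates of 50000 cells each, with no other condition, no control group and no treatment. Both replicates carry 1 donor identifier in the labels. Whether 2 animals were sampled is not stated, and differences between the replicates may therefore be technical only. Sex was not recorded, and the labels used here do not say how the monocytes were purified. All 8 monocyte marker genes examined had an open promoter in the conservative set and in replicate 1's own thresholded set, and 7 in replicate 2's. Of 10 markers of other blood cells and liver, 2 were open in the conservative set (Pax5 of B cells and Klf1 of erythroid cells), with 1 open in replicate 1's own set and none in replicate 2's. Over all protein-coding genes 47.7% had an open region within 1 kb of a start in the conservative set. Depth is unknown, since the files hold peaks without read counts. Over a single group of 2 replicates the smallest two-sided p of an exact sign-flip test is 0.5, so values are given for each replicate and no test is reported.

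Head-to-head genes are common in mammalian genomes, and the short DNA between their starts can act as 1 promoter that fires in both directions. Such promoters usually lie in CpG islands, mostly lack a TATA box, and often carry CCAAT boxes, which are bound by the trimeric factor NF-Y, or sites for ETS factors such as GABPA. Many of the genes concerned are housekeeping genes, needed by nearly every cell for DNA repair, protein synthesis or energy metabolism. In monocytes the cell-type programme is known to be driven by PU.1 and C/EBP factors, which act at many distal enhancers.

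The DNA between the starts is shown for 9 pairs that stand for the patterns measured here: pairs with several CCAAT boxes, pairs with another motif, and 1 pair with none between its starts. Sequences are the plus strand of GRCm38.p6 (mm10), read from the base after the minus-strand start to the base before the plus-strand start, and no annotated exon overlaps these intervals. The minus-strand gene is named first and is transcribed leftward, and the plus-strand gene rightward. Capitals mark a match to any of 16 motif strings on either strand, among them CCAAT (NF-Y), GGGCGG (SP and KLF), CCGGAAGT (ETS), TGACGTCA (CREB and ATF), GCATGCGC (NRF1) and the core of the TATA box, TATAAA.
Elp4-Immp1l, chr2:105904565-105904637: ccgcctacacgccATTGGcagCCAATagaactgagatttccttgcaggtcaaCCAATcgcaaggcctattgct
Aimp2-Pms2, chr5:143909848-143909963: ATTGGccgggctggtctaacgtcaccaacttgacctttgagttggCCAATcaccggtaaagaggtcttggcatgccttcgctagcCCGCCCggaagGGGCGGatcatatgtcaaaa
Rpa1-Smyd4, chr11:75348325-75348432: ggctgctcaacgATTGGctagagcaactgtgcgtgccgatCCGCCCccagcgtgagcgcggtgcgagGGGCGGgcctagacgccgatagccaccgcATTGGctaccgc
Gtf3c1-D430042O09Rik, chr7:125707781-125707887: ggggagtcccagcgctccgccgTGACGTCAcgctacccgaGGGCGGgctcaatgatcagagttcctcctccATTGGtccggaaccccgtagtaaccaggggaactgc
Hist1h2ak-Hist1h2bn, chr13:21753828-21754122: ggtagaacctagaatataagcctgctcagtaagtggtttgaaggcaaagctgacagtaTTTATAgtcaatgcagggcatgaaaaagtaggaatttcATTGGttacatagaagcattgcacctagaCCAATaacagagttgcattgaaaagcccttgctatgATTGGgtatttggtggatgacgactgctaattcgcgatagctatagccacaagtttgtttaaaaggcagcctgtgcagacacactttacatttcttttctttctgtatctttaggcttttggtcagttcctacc
H2-T22-Gm6034, chr17:36042748-36042960: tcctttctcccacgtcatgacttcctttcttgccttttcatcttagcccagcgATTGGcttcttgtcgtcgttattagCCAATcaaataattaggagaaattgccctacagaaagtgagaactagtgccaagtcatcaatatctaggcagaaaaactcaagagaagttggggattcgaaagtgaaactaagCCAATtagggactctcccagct
Trip4-Csnk1g1, chr9:65908795-65908923: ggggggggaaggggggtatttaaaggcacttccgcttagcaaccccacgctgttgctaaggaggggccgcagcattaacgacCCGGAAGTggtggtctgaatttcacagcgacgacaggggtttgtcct
Ftsj3-Psmc5, chr11:106256080-106256153: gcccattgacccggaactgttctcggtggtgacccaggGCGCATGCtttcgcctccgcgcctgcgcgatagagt
Xrcc4-Tmem167, chr13:90089083-90089122: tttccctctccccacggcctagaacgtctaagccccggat
Elp4-Immp1l held 3 CCAAT boxes in 73 bases, in both orientations. Aimp2-Pms2 and Rpa1-Smyd4 each held 2 CCAAT boxes and 2 GGGCGG boxes. Hist1h2ak-Hist1h2bn joined 3 CCAAT boxes to a TATA box, and H2-T22-Gm6034, of the major histocompatibility complex, held 3 CCAAT boxes. Gtf3c1-D430042O09Rik held the palindromic CREB string beside a GGGCGG and a CCAAT box. Trip4-Csnk1g1 held 1 ETS string and Ftsj3-Psmc5 1 NRF1 string. The 40 bases of Xrcc4-Tmem167 matched none of the 16 strings, but its summit lay 519 bp to the right of the plus-strand start. The strings of NF-Y, of SP and KLF and of E2F were found around that summit. The outermost 5′ end of Xrcc4 is at 90089608, near the summit at 90089642. The 40 bases thus lie inside the annotated span of Xrcc4, and the summit was not remote from every 5′ end of the pair.

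The first question was how many of the annotated head-to-head pairs were open. The gene models hold 1066 pairs with starts at most 1 kb apart, made of 2098 genes, which is 10.1% of all 20722 protein-coding genes. An open region within 1 kb of both starts was found for 951 pairs (89.2%), where 47.7% of all protein-coding genes had an open region within 1 kb of a start. Among the 18624 genes in no divergent pair 7985 were open (42.9%). In the replicates' own thresholded sets 873 pairs (81.9%) were open in replicate 1 and 904 (84.8%) in replicate 2, against 35.4% and 36.7% of the genes in no pair. The difference was 46.5 percentage points in replicate 1 and 48.1 in replicate 2 (SD 1.10, n = 2), and 46.3 in the conservative set. Open in both replicates' own sets were 853 pairs, and all 853 were open in the conservative set too.

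CpG content moved with this difference. The observed over expected CpG ratio within 500 bp of a start was used to part pairs and genes into 5 classes. A gene took the highest ratio over its starts, and a pair the higher ratio of its 2 genes, also in the weighting of open shares below. A pair thus draws its highest value from the starts of 2 genes, which can place it in a richer class. In the most CpG-rich class 425 of 455 pairs (93.4%) and 74.6% of the genes in no pair were open. In the fourth class the shares were 92.8% and 69.4%, and in the third 84.9% and 56.3%. By this measure the 2 CpG-poorest classes held few pairs, 1 open of 5 and 12 open of 35, against 5.41% and 19.8% of the genes in no pair. Pairs were ahead in each of the 3 CpG-rich classes in both replicates. With the genes in no pair weighted to the CpG ratios of the pairs, over 20 classes, 67.8% of them were open and the difference shrank to 21.4 percentage points. Of the 951 open pairs 88 hold a gene with a provisional symbol.

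**Figure D1:**
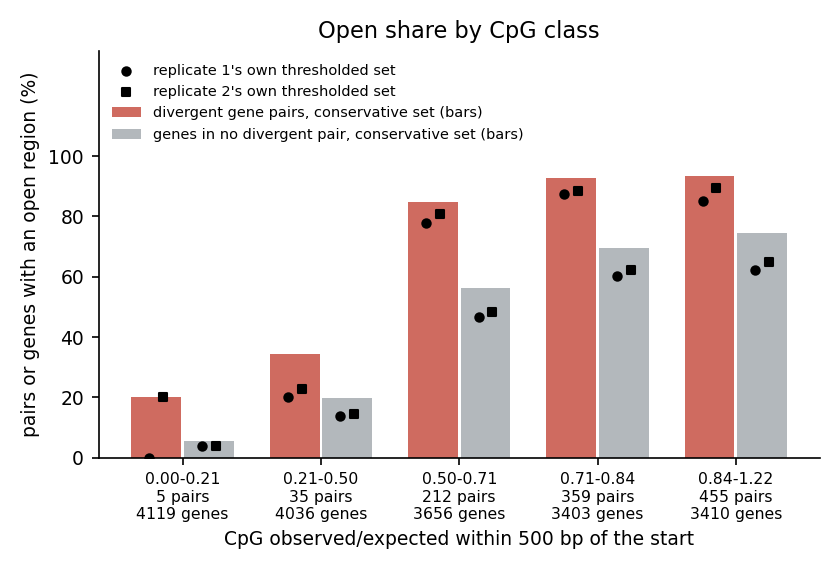
Share of divergent pairs (red bars) and of protein-coding genes in no divergent pair (grey bars) with an open region within 1 kb, in percent, by class of CpG observed over expected ratio, in the conservative set; black circles and squares give the own thresholded sets of replicates 1 and 2. The ratio is the highest over the starts of a gene, or over those of both genes of a pair. In the 3 right-hand classes the pairs reach 84.9 to 93.4% and the other genes 56.3 to 74.6%; the leftmost class holds 5 pairs only.

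The starts of annotated pairs were close together. Their distance had a median of 120 bp, with quartiles of 66 and 243 bp, and ran from 1 to 987 bp. Most pairs had 1 open region (858), while 89 had 2 and 4 had 3. A single region served 1 pair in 988 cases and 2 overlapping pairs in 30. Of the 1018 regions 816 (80.2%) covered both starts, 105 covered exactly 1, and 97 lay within 1 kb of both but covered neither. When each gene was given only its outermost 5′ end in place of all its coding transcripts, 636 of the 951 open pairs were still divergent.

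The divergent regions had higher fold enrichment than promoters of single genes in both replicates. Strength was taken as the fold enrichment over background, the authors' own value for each peak, with the highest peak of a merged region standing for it. A single-gene promoter is a region within 1 kb of the starts of exactly 1 protein-coding gene that is in no divergent pair (8846 regions). In the replicates' own thresholded sets the median fold of divergent regions was 8.56 in replicate 1 and 8.25 in replicate 2, and that of single-gene regions 7.97 and 7.79. The difference was 0.59 and 0.46 (SD 0.09, n = 2), so it was larger than the spread between replicates. In the conservative set the medians were 8.61 (quartiles 6.70 and 10.7) and 7.47, a wider difference of 1.14. It was 0.46 without replicate 1 and 0.59 without replicate 2. These sets differ both in the peaks they keep and in whether folds come from 1 replicate or from both together, and the part of each was not tested. With single-gene regions weighted to the CpG ratios of divergent ones the difference in the conservative set was 0.62. Regions were also wider: medians were 663 bp in replicate 1 and 692 bp in replicate 2, against 539 and 558 bp for single-gene regions, and 796 against 618 bp in the conservative set. Among regions made of 1 peak only, divergent ones had the higher fold in replicate 1 (8.56 against 7.99), in replicate 2 (8.20 against 7.74) and, by a wider difference, in the conservative set (8.42 against 7.09). Their width in the conservative set was 526 against 453 bp. Of the divergent regions 64.4% were among the strongest 25% of all regions by p, and of single-gene regions 45.0%.

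A closer match to these regions is the promoter of a single coding gene with a long noncoding RNA (lncRNA) starting divergently from it. There were 723 such regions, a subset of the single-gene regions, and their median CpG ratio within 500 bp of the summit, 0.79, was near the 0.78 of divergent pairs. Single-gene regions as a whole had 0.71. Their median fold in the replicates was 8.10 and 8.02, and their median width 595 and 620.5 bp. Both measures lay between those of single-gene regions and those of gene pairs in each replicate. Their share among the strongest 25% was 53.7% in the conservative set.

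The presence of divergent promoters in each replicate was compared with that of other regions. The conservative set was made from both replicates, so a high share found again in both is partly built in for every class of region. In the replicates' looser pseudoreplicated sets, 1000 of the 1018 regions (98.2%) were found in both replicates, 16 in 1 and 2 in neither. The share in both was 96.1% for single-gene regions and 88.0% for regions farther than 1 kb from every start. In the stricter thresholded sets 869 divergent regions (85.4%) were in both replicates, and 69.6% of single-gene regions. Strength moved with these shares: 153 divergent regions fell below the median −log10 p of all regions. Of those 153, 36 (23.5%) were in both thresholded sets, against 13.7% of the single-gene regions below the same median. Over the 1000 shared regions the median log2 ratio of replicate 2 to replicate 1 was -0.03 (SD 0.20), and as a description Pearson's r of the log2 folds was 0.91. Only 2 regions differed more than 2-fold, and in both cases 1 wide replicate region overlapped 2 neighbouring regions of a pair and gave each of them its value. In Ift80-Smc4, named here after its values were seen, the 8.24 of replicate 1 stands for both regions, for which replicate 2 gave 7.49 and 4.0.

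**Figure D2:**
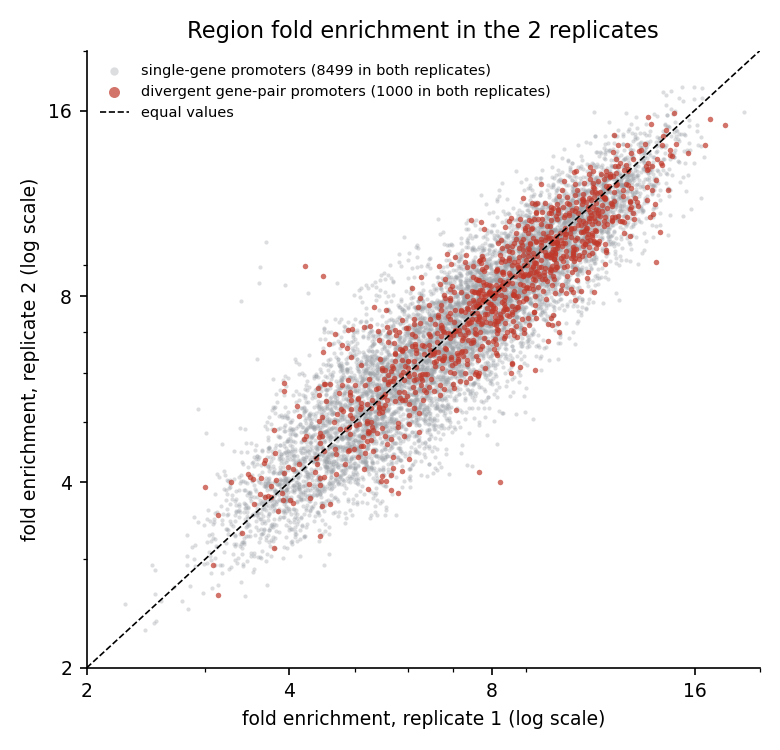
Fold enrichment of each region in replicate 1 (x axis) and replicate 2 (y axis), both on log scales, from the replicates' looser sets; red points are the 1000 divergent gene-pair promoters found in both replicates, grey points single-gene promoters, and the dashed line marks equal values. Red points follow the line with an SD of 0.20 in log2, and they run from 3.0 to 17.8 in replicate 1.

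The strongest divergent regions served pairs of quite different function. The 10 strongest by mean rank over both replicates had folds of 14.3 to 17.8 in replicate 1 and 13.6 to 15.9 in replicate 2, where the medians of all divergent regions in the same sets were 8.28 and 8.11. Trip4-Csnk1g1 (chr9:65908506-65909195) had 17.8 in replicate 1 and 15.2 in replicate 2; Trip4 is a transcriptional coactivator subunit and Csnk1g1 a casein kinase. Xrcc4-Tmem167 had 14.9 and 15.9, and Xrcc4 is the partner of DNA ligase IV in end joining of double-strand breaks. Cct6b-Zfp830 had 16.6 and 14.1, Cops2-Galk2 15.7 and 13.6, and Elp4-Immp1l 14.5 and 14.9. Cct6b is a chaperonin subunit of the testis, Cops2 a subunit of the COP9 signalosome, Elp4 part of the Elongator complex and Immp1l a mitochondrial inner membrane protease. Skp2-Lmbrd2 had 14.4 and 14.5, and Skp2 is the F-box protein that marks cell cycle inhibitors for degradation. The other 4 were Oip5-Nusap1, Ccpg1os-Ccpg1, Calr3-1700030K09Rik and AU022252-P3h1. Since these 10 were ranked by their folds, the values describe them and test nothing.

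At the other end, 3 of the 5 weakest regions found in both replicates had a summit well outside both starts. Among them Hnrnpk-Rmi1 had 3.4 in replicate 1 and 3.31 in replicate 2, and Fbxl6-Slc52a2 3.54 and 3.68, with summits 1088 and 876 bp to the left of the minus-strand start. Prune1-Mindy1 (3.08 and 2.94) and Nab2-Nemp1 (3.13 and 3.53) had starts farther apart, 868 and 434 bp. These pairs also had other regions. The strongest other region had folds of 7.89 and 7.82 for Hnrnpk-Rmi1 and of 7.56 and 7.36 for Fbxl6-Slc52a2. It had 8.60 and 7.29 for Prune1-Mindy1, but only 3.28 and 3.99 for Nab2-Nemp1. A pair can thus own both a strong and a weak region. Trip4-Csnk1g1 had a second region 701 bp past the plus-strand start, with folds of only 3.72 and 3.8. Ranbp1-Trmt2a had 3 regions, and the one over both starts had 6.12 in replicate 1 and 7.21 in replicate 2.

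Where along the pair the chromatin was most open was read from the summit, the position of highest signal in the peak with the smallest p. The summit lay between the 2 closest starts in 539 of 1018 regions (52.9%), and in 54.7% and 53.9% in the replicates' own sets (SD 0.51, n = 2). The interval between the starts made up 18.6% of the width of a region on average. Of the other summits 245 lay to the left of the minus-strand start and 234 to the right of the plus-strand start. Within 150 bp of the interval lay 80.9% of summits. Measured to the nearest of all coding starts of both genes, 69.8% of summits were upstream of that start, at a median of 23 bp upstream, and 73.1% at a median of 41 bp in single-gene regions. Replicate 1 gave 71.8% against 76.0% and replicate 2 70.3% against 75.2%.

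The share of summits between the starts was higher where the starts were farther apart, up to 200 bp, and so was the share of the region that the interval takes. With starts 1 to 50 bp apart 23.6% of summits fell between them, with 51 to 100 bp 43.3%, and with 101 to 200 bp 66.5%. Beyond that the share stayed near 65%: 65.2% at 201 to 400 bp and 65.0% at 401 to 1000 bp. The interval itself made up 3.90%, 8.94%, 16.7%, 30.9% and 43.6% of the region on average in the same 5 classes, so each share lay above it, by the smallest factor in the last class. Region width did not grow with the distance, and its median was 759.5, 816, 787, 826.5 and 754.5 bp in the 5 classes from close to far. In the closest classes the summits between the starts showed little preference for the central part of the interval, 1 of 3 equal parts: it held 17 of 42 (40.5%) at 1 to 50 bp, with 15.2% and 41.0% in the replicates, and 41 of 107 (38.3%) at 51 to 100 bp. At 101 to 200 bp, 84 of the 179 summits between the starts (46.9%) lay there, at 201 to 400 bp 68 of 133 (51.1%), and at 401 to 1000 bp 12 of 78 (15.4%). The replicates gave 51.2% and 51.7% at 101 to 200 bp and 13.7% in each at 401 to 1000 bp. With starts over 400 bp apart only 39 of 120 regions covered both starts, and 21 of 105 pairs had 2 or more regions, against 23 of 251 at 101 to 200 bp. Zfyve26-Rad51b, with starts 978 bp apart, is an example. One region had its summit 33 bp from the start of Zfyve26, with folds of 10.8 and 9.19, and the other 4 bp from the start of Rad51b, a recombination gene, with folds of 6.45 and 6.94. Bag4-Lsm1, with starts 1 bp apart, had a single region with its summit on the plus-strand start and folds of 9.05 and 9.44.

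**Figure D3:**
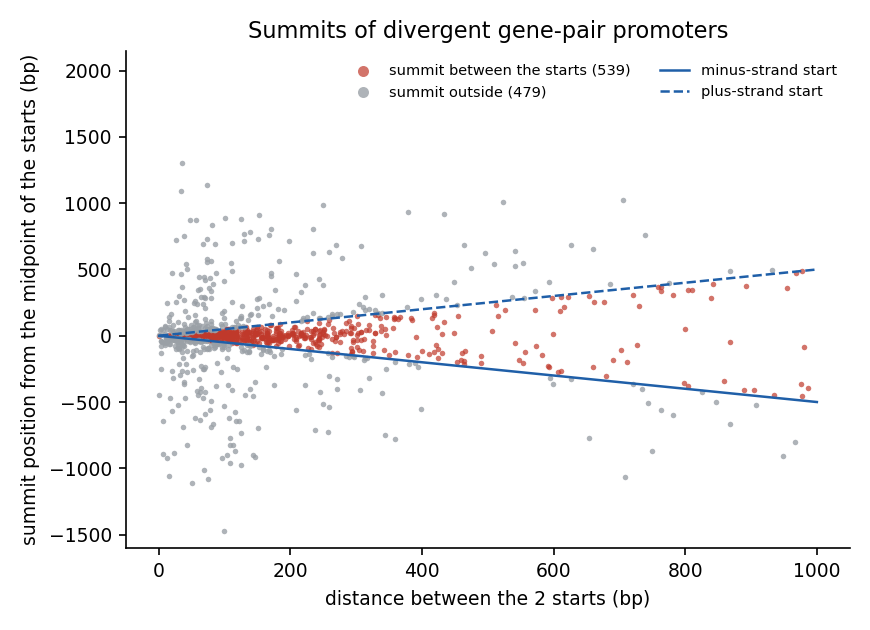
Position of the summit of each of the 1018 divergent regions relative to the midpoint of the 2 starts, in bp (y axis, positive toward the plus-strand gene), against the distance between the starts in bp (x axis); blue lines mark the starts. Red points, 539 summits between the starts, lie more often in the central part of the wedge from 101 to 400 bp and nearer to its edges beyond, while 479 grey points lie outside it.

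Sequence around the summit was searched for 16 motif strings on both strands within 100 bp of the summit, a window of 201 bp. Matches are descriptions of letters, not of bound sites. In 9 of 16 strings the share of regions with a match was higher in divergent than in single-gene regions in the conservative set and in both replicates' own sets, and in 6 it was lower in all 3. For 5 strings the ratio was above 5 to 4 in all 3 sets. The ETS string CCGGAAGT occurred in 129 divergent regions (12.7%) and in 7.88% of single-gene regions, a ratio of 1.61 (1.42 and 1.38 in the replicates). Its share among all 27898 regions was 3.68%. The YY1 string AAGATGGCG occurred in 4.62% against 2.65% (1.22% of all regions) and TCTCGCGAG, bound by BANP, in 2.26% against 1.23% (0.50% of all regions). The CREB and ATF string TGACGTCA was in 4.81% against 3.44%, and ACTACAATT, part of the ZNF143 motif, in 12 divergent regions only (1.18% against 0.78%). TTCCCGC, the E2F string of cell cycle genes, was in 7.86% against 5.72%, with ratios of 1.24 and 1.31 in the replicates. GCATGCGC of NRF1, a regulator of mitochondrial genes, differed little (4.81% against 4.37%), as did GGGCGG of SP and KLF factors (60.6% against 55.5%). In single-gene regions with a divergent lncRNA start the ETS string was in 9.54%, YY1 in 2.90%, BANP in 1.66%, CREB and ATF in 3.73% and ZNF143 in 0.41%. The E2F string was in 7.33% of them, close to divergent pairs, and NRF1 (5.39%) and GGGCGG (64.9%) were more frequent than in pairs.

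Strings of factors that define myeloid and stimulated cells were less frequent in divergent than in single-gene promoters, except that the ratio of the PU.1 string was 1.03 once weighted for CpG. GAGGAAGT, the PU.1 string, was found in 2.65% of divergent, 4.19% of single-gene and 11.9% of distal regions, which lie over 1 kb from every coding start. TTGCNNAA of C/EBP was in 4.72%, 6.45% and 13.5% of the same 3 classes, and TGANTCA of AP-1 in 1.77%, 3.93% and 11.3%. The RUNX string TGTGGTTT was in 1 divergent region of 1018 and in 106 of 8846 single-gene regions (1.2%). Single-gene regions with a divergent lncRNA start, the closer match, had 2.49% for PU.1 and 5.12% for C/EBP, near the shares of divergent pairs. For AP-1 they had 3.18% and for RUNX 0.83%, nearer to single-gene regions as a whole. AGGGGGCGC, part of the CTCF motif, was in 1.18% against 1.85%. CACGTG, the E-box of USF and MYC, was in 8.06% against 8.85%. TATAAA was rare in both (2.36% and 2.68%), and its ratio was 1.05 in replicate 1 and 0.85 in replicate 2. Weighted to the CpG ratios of divergent regions, the ratio was 1.36 for ETS, 1.46 for YY1, 1.39 for BANP and 1.56 for ZNF143, but 1.204 for CREB and ATF and 1.185 for E2F, which no longer exceeded 5 to 4. Under the same weights 4 ratios crossed 1: PU.1 went from 0.63 to 1.03, TATAAA from 0.88 to 1.04, NRF1 from 1.10 to 0.92 and SP and KLF from 1.09 to 0.95. The ratio of C/EBP went from 0.73 to 0.93, close to 1, that of AP-1 from 0.45 to 0.64 and that of RUNX from 0.08 to 0.16. None of the 16 strings was found in 112 divergent regions (11.0%).

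**Figure D4:**
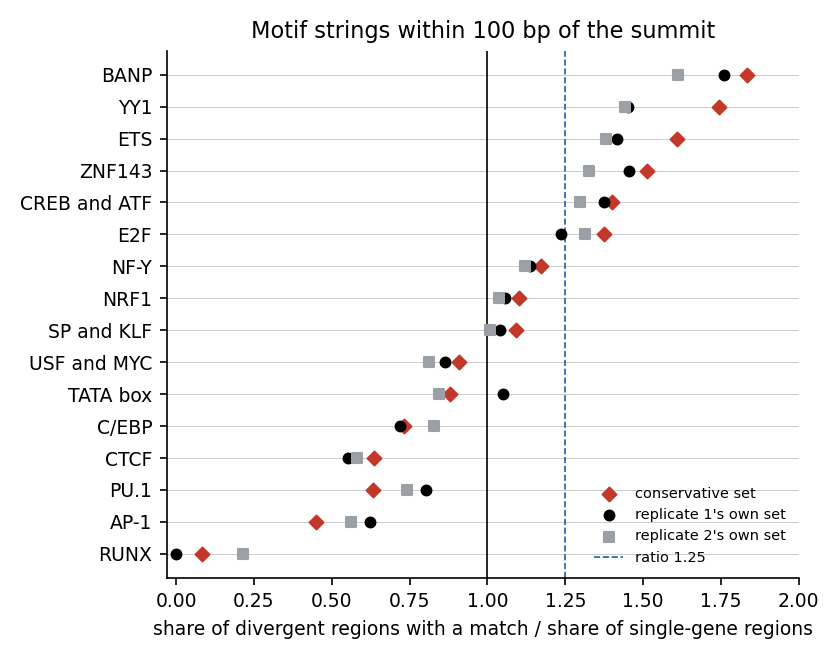
Share of divergent regions with a motif string within 100 bp of the summit, divided by the share of single-gene regions (x axis), for 16 strings (y axis); red diamonds are the conservative set, black circles and grey squares the replicates' own sets, and the solid line marks a ratio of 1 and the dashed line a ratio of 5 to 4. BANP, YY1 and ETS lie farthest to the right and RUNX and AP-1 farthest to the left in the conservative set, without any weighting for CpG.

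CCAAT boxes were the commonest string after GGGCGG and moved with strength and geometry. They were in 407 divergent regions (40.0%), in 34.1% of single-gene regions and in 26.8% of all regions. In single-gene regions with a divergent lncRNA start the share was 37.8%, close to that of pairs. Divergent regions with a CCAAT box had a median fold of 9.33 in replicate 1 and 9.17 in replicate 2, and those without 7.89 and 7.63. Single-gene regions differed in the same way in the conservative set (8.70 against 6.97), so the same direction was seen outside pairs. Of 686 CCAAT matches in divergent windows 472 (68.8%) lay between the starts, where the interval between the starts made up 41.0% of the window. Of those upstream of the nearest start 388 of 466 lay within 100 bp of it. The search reached only 100 bp from the summit, and most summits lay near a start, so this closeness is partly built in. YY1 strings showed the opposite position: 5 of 48 (10.4%) lay between the starts, and 27 lay within the first 50 bp downstream of the nearest start, at a median of 37.5 bp downstream over all 48. In the replicates 4 of 44 and 4 of 43 YY1 matches were upstream. ETS strings were split, with 59 of 144 (41.0%) between the starts and a median position 4 bp downstream of the nearest start. Rps27-Rab13, with the ribosomal protein gene Rps27, and Nup88-Rpain were among the named pairs with a YY1 string.

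The share of regions with a CCAAT box was higher where the starts were farther apart. It was 26.4% at 1 to 50 bp, 29.6% at 51 to 100 bp, 46.1% at 101 to 200 bp, 49.5% at 201 to 400 bp and 51.7% at 401 to 1000 bp. Replicate 1 went from 26.9% to 50% and replicate 2 from 27.4% to 52.8%. ETS strings ran the other way: 20.2% at 1 to 50 bp, 15.8% at 51 to 100 bp and 8.33% at 401 to 1000 bp, with 20.5% to 6.60% in replicate 1 and 20.2% to 7.41% in replicate 2. Surf1-Surf2, with starts 22 bp apart, carried an ETS string and no CCAAT box in its window; Surf1 is an assembly factor of cytochrome oxidase. Atm-Npat, with starts 307 bp apart, carried CCAAT and GGGCGG but no ETS string. Both CCAAT and ETS strings were held by 37 divergent regions, and both CCAAT and GGGCGG by 250. Among all divergent regions 40.0% held CCAAT, 12.7% the ETS string and 60.6% GGGCGG. The 2 counts thus start from unlike shares and show no preference of 1 string for another.

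**Figure D5:**
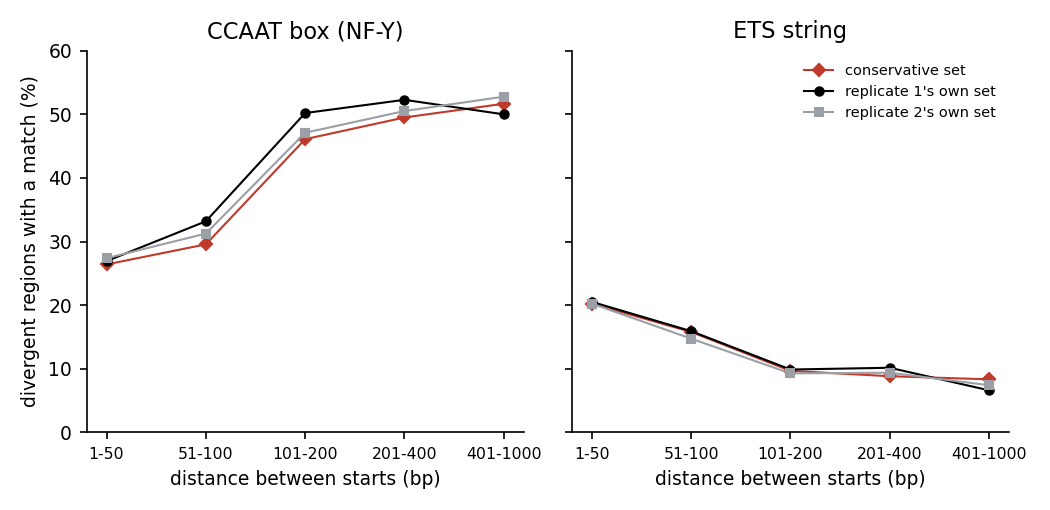
Share of divergent regions with a CCAAT box (left) and with the ETS string (right) within 100 bp of the summit, in percent (y axis), by distance between the 2 starts in bp (x axis), in the conservative set (red) and each replicate's own set (black and grey). The CCAAT share goes from 26.4 to 51.7% in the conservative set and the ETS share from 20.2 to 8.33%, and the replicates follow the same course.

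The genes served were then counted by process, using lists fixed by symbol. Of all protein-coding genes 9.03% were in an open divergent pair. DNA repair had the largest share of any list, 23 of 62 genes (37.1%), and its 23 genes in annotated pairs were all open (23 and 22 by replicate). Over all annotated pairs 1872 of 2098 genes were in an open pair. The lists of RNA polymerases, translation factors, DNA replication and proteasome had all their paired genes in open pairs as well. The histone list followed with 25 of 75 genes (33.3%), and in 12 pairs both partners were histone genes. Mitochondrial ribosome and tRNA synthetase genes were in open pairs in 29 of 95 cases (30.5%), splicing genes in 17 of 58 (29.3%), respiratory chain genes in 25 of 86 (29.1%) and DNA replication genes in 13 of 47 (27.7%). RNA polymerase subunits and general factors gave 27 of 100 (27.0%), chaperones 20 of 80, the proteasome 10 of 49 (20.4%), translation factors 16 of 82 (19.5%), cytosolic ribosomal proteins 12 of 72 (16.7%) and vesicle traffic 23 of 169 (13.6%). Below the background were zinc finger proteins, 24 of 385 (6.23%), and monocyte and immune genes, 6 of 109 (5.50%). The share in annotated pairs, which needs no chromatin data, was nearly the same: 37.1% of DNA repair genes, 36% of histones, 32.6% of the mitochondrial ribosome list and 5.50% of the immune list are in such pairs, whether open or not, and 10.1% of all protein-coding genes. Of 1310 genes of other tissues, mostly olfactory receptors, keratins, Hox and cytochrome P450 genes, 22 were open and 2 are in annotated pairs, and both of these, Col4a3 and Col4a4, were closed.

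Among DNA repair pairs, median fold was 10.7 over 26 regions in the conservative set, and all 26 were found in both replicates. Aimp2-Pms2 (chr5:143909324-143910258) had 13.2 in replicate 1 and 13.8 in replicate 2; Pms2 is a mismatch repair protein and Aimp2 a scaffold of the tRNA synthetase complex. Atm-Npat, which joins a kinase of the DNA damage response to an activator of histone genes, had 10.7 and 10.9. Brca1-Nbr1, joining a recombination gene to an autophagy receptor, had 9.79 and 9.27, and its summit lay 549 bp to the right of the plus-strand start. Mcm4-Prkdc pairs a subunit of the replicative helicase with the catalytic subunit of DNA-PK and had 11.4 and 9.84. Wrap53-Trp53 was weaker: the region over both starts had 6.78 and 5.66, below the medians of 8.28 and 8.11. Pinlyp-Xrcc1 had 13.3 and 13.8, but its summit lay 719 bp to the right of the plus-strand start, and the CpG ratio around the starts was 0.24.

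DNA replication pairs had the highest median fold of the lists, 11.5 over 13 regions, against 8.61 over all divergent regions. Rpa3-Umad1 and Rpa1-Smyd4, which carry 2 subunits of the single-strand binding protein RPA, had 14.8 and 13.5, and 11.5 and 12.3. Both had CCAAT boxes in the window, as had Prpf38a-Orc1 (14.3 and 13.1), which joins a splicing factor to a subunit of the origin recognition complex. The Rpa and Orc1 pairs were picked as the strongest of their list and do not stand for it. Divergent regions with a CCAAT box had higher folds, so a pick by fold favours them. Fen1-Tmem258, with the flap endonuclease of Okazaki fragments, was lower at 8.01 and 7.56. Histone pairs were mostly an H2A gene facing an H2B gene, and their regions were narrow. Hist1h2ah-Hist1h2bk (354 bp) had 11.3 and 12.8, Hist1h2bh-Hist1h3f (376 bp) 10.3 and 11.6, and Hist1h2ak-Hist1h2bn (403 bp) 9.62 and 9.31. All 3 carried CCAAT boxes, but they too were picked as the strongest of their list. The median width of divergent regions was 796 bp. Histone genes are near-identical copies, and reads shared between them can be lost or misplaced in mapping, so their values are less certain.

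Respiratory chain pairs had a median fold of 10.1 over 26 regions, above the 8.61 of all divergent regions, while lists for protein synthesis and turnover lay slightly below it. Medians were 8.27 for the mitochondrial ribosome and tRNA synthetases, 8.23 for the proteasome, 7.86 for the cytosolic ribosome and 7.71 for translation factors. Most pairs named next were picked as the strongest of their list and do not stand for it. Fam126b-Ndufb3 had 13.8 and 11.9 and Wdr4-Ndufv3 11.8 and 12.8, both with complex I subunits. Of the mitochondrial ribosome and synthetase list, Mrpl50-Zfp189 had 11.2 and 12.6 and Orc3-Rars2 11.3 and 12.01. Mrps12-Sars2 pairs a mitochondrial ribosomal protein with the mitochondrial seryl-tRNA synthetase and had 9.27 and 8.02. Rpl15-Nkiras1 (12.4 and 13.1), Rpl9-Lias (11.3 and 11.1) and Rps27-Rab13 (10.3 and 9.48) were the highest of the cytosolic ribosome. The chaperonin pair Hspd1-Hspe1, whose products form the mitochondrial folding chamber and its lid, had 9.89 and 8.53. Among proteasome pairs AY074887-Psma4 had 12.6 and 12.2, Ftsj3-Psmc5 10.6 and 8.14, and Psmb1-Tbp 8.60 and 8.03, the last with the TATA-binding protein. Gtf3c1-D430042O09Rik, with a subunit of the polymerase III factor TFIIIC, had 14.2 and 10.2 (mean 12.2, SD 2.86, n = 2).

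Zinc finger pairs had a median fold of 8.89 over 21 regions and vesicle traffic pairs 8.62 over 23, both near the 8.61 of all divergent regions. The named ones are again the strongest of their lists. Zfp944-Zfp758, in which zinc finger genes face each other, had 14.1 in replicate 1 and 13.3 in replicate 2, and Zfp654-Cggbp1 had 13.5 and 13.03. Ncstn-Copa, which joins a subunit of gamma-secretase to a coat protein of Golgi vesicles, had 12.3 and 13.02. Trappc11-Rwdd4a and Galns-Trappc2l carry subunits of the TRAPP tethering complex and had 13.8 and 12.99, and 11.4 and 11.99. Tbccd1-Dnajb11 and Mrpl18-Tcp1, with a chaperone of the endoplasmic reticulum and a subunit of the cytosolic chaperonin, had 12.97 and 10.9, and 11.4 and 11.3.

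By distance between the starts, median fold in the conservative set ran from 8.06 at 401 to 1000 bp to 9.02 at 101 to 200 bp. The 5 widest regions, from Slc30a7-Extl2 with 1809 bp to Ttc9c-Hnrnpul2 with 1886 bp, were each made of 4 to 6 peaks. Their folds ran from 5.16 for Slc30a7-Extl2 to 9.31 for Nup88-Rpain in replicate 1, and from 4.2 to 7.39 in replicate 2. Of pairs with starts 1 bp apart, Dcun1d3-Lyrm1 had 12.3 and 12.2, and Arfrp1-Zgpat 5.44 and 5.29. The summit of Dcun1d3-Lyrm1, at 119895848, lay 443 bp to the left of the minus-strand start. It was near the outermost 5′ end of Lyrm1 at 119895861, so its fold need not describe the starts 1 bp apart. At 987 bp Btf3l4-Txndc12 had 6.94 and 6.37, with its summit 98 bp from the minus-strand start, and at 981 bp Asphd1-Sez6l2 had 5.15 and 4.57. Of the regions found in only 1 replicate's looser set, the 5 with the highest fold in the conservative set lay below that replicate's median. The region of Atg9a-Ankzf1 had 5.28 in replicate 1, and those of Enkur-Thnsl1, Uqcrh-Lrrc41, Polr2l-Tspan4 and Vps9d1-Zfp276 had 3.82 to 5.45 in replicate 2. Some of these pairs also had a stronger region found in both replicates. It had 8.68 and 9.90 for Atg9a-Ankzf1, 11.1 and 10.1 for Enkur-Thnsl1, and 7.73 and 8.20 for Uqcrh-Lrrc41.

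Few pairs belonged to the immune programme of the monocyte. Of the 109 genes of that list 85 had an open promoter, where 47.7% of all protein-coding genes had one. Only 6 were in annotated divergent pairs, and these 6 were open in 5 regions. Over all annotated pairs 89.2% were open, so 6 open genes are near the general share. Psmb9-Tap1 joins an immunoproteasome subunit to the peptide transporter that loads class I molecules; it had 8.80 in replicate 1 and 6.15 in replicate 2. Bcl2l12-Irf3 had 8.10 and 7.30, and Irf3 turns on type I interferon genes after viral sensing. Myd88-Acaa1a, with the adaptor of Toll-like receptors, had 7.59 and 7.73. H2-T22-Gm6034 had 8.04 and 7.94; H2-T22 has near-identical relatives in the same gene cluster. Brd2-H2-DMa was found in replicate 2 only, at 3.25. Their median fold of 7.81 in the conservative set lay below the 8.61 of all divergent regions, as did those of translation factors (7.71) and the cytosolic ribosome (7.86), and rests on 5 regions only.

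Closed pairs numbered 115 in the conservative set. Of these 37 had a region in the looser replicated set of the series, and 76 had none in any set examined. Neither gene had an open region anywhere at its starts in 84 pairs, while at least 1 gene did in 31, and in 6 of those both did. The CpG ratio within 500 bp had a median of 0.56 in closed and 0.78 in open pairs, and the distance between starts a median of 136 and 117 bp. Here the ratio was taken at the pair's own closest starts, not as the highest over all starts as in the 5 CpG classes. Among the pairs with no region in any set, several hold genes used in other tissues: Abcg5-Abcg8, the sterol exporters of liver and gut, Col4a4-Col4a3 of basement membranes, Gabra4-Gabrb1, receptor subunits of neurons, and Kirrel2-Nphs1, with nephrin of the kidney filter. Peg3-Usp29, an imprinted pair, and Hspb2-Cryab, small heat shock proteins of muscle and lens, were closed as well. These 6 were picked after the list had been read. Of the pairs with no region in any set, the 5 with the highest CpG ratio were Bend6-Dst (1.01), Rfng-Gps1 (1.00), Sobp-9030612E09Rik (0.86), N4bp3-D930048N14Rik (0.84) and Nrg4-Tmem266 (0.81). Of 22 often-studied pairs listed by name, 17 meet the rule in these gene models, and all 17 were open, a share near the 89.2% of all annotated pairs.

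Genes of divergent pairs had few distal regions nearby. A region over 1 kb from every coding start was given to the nearest start within 100 kb. Genes of open divergent pairs had 0.41 such regions each, and open genes in no pair 1.254. The replicates gave 0.21 and 0.22 against 0.64 and 0.65. At least 1 distal region was found for 25.6% of the genes of pairs and 50.7% of the genes in no pair. By construction the partner's start takes up 1 side of each gene in a pair, so the pair was also counted as a unit. A pair then had 0.83 distal regions over both genes, still below the 1.254 of 1 gene in no pair, with 0.41 and 0.44 against 0.64 and 0.65 in the replicates. The share with at least 1 came closer: 44.0% of pairs against 50.7% of genes in no pair, with 26.0% and 27.7% against 34.0% and 34.1% in the replicates. Genes of pairs were also shorter, with a median length of 18.5 kb against 24.2 kb. The part of gene length and of neighbouring genes in this difference was not tested.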

How the data were processed

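ATAC-seq peak lists of 2 monocyte replicates were analysed, with coordinates of mm10 per the labels. Which aligner and peak caller made them, and whether reads were shifted for Tn5, is not given in the sources used here. Per the deposited README, the authors called peaks for each replicate and for both together. The score of each peak, which the authors deposited on a scale that ends at 1000, was read but no printed result uses it. Fold enrichment, a linear ratio, and the −log10 p of each peak are the authors' values in the deposited lists and were not rescaled. No read counts were used, so depth is unknown and sets of different depth may hold different peaks.

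Peaks that overlapped were merged (highest fold, summit of the smallest p) on chromosomes 1 to 19. Starts were those of protein-coding transcripts of protein-coding genes in GENCODE M21, and sequence came from GRCm38.p6. Series values come from the conservative thresholded set. Class values by replicate come from each replicate's own thresholded set, and replicate folds of single regions from its looser pseudoreplicated set. A replicate region that overlaps several regions gives each of them its value. Members, gene lists, motif strings and rules for named pairs were chosen with earlier results of these data known. Named pairs were 22 fixed ones, the 10 strongest, 5 weakest, 5 closest, 5 farthest and 5 widest, up to 3 of each list with the highest mean fold, the 5 pairs with the highest CpG ratio among those with no region in any set, and the 5 with the highest conservative fold among those found in 1 replicate. A few of these are not reported here. Where a window held several divergent pairs, the pair whose midpoint lay nearest the summit was used. The classing and motif search were tested on simulated data. Alternatives were other peak sets, each replicate alone, other starts, distances and merging, CpG weights and other motif windows. Python 3.11.15, numpy 2.4.6, pandas 2.3.3, pysam 0.24.0 and matplotlib 3.10.9 were used.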

Additional observations from a re-analysis of the deposited data

How the results depend on the processing

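No paired analysis was possible because the series holds 1 group. With the replicated set of the series, the open share of divergent pairs exceeded that of genes in no pair by 40.7 percentage points, the fold difference from single-gene regions was 2.24, the width difference 214 bp and the share of summits between the starts 47.3%. With peaks at or above the median −log10 p these were 48.5 points, 0.49, 158.5 bp and 54.7%. With regions that overlap the starts they were 39.5 points, 0.96, 203 bp and 59.4%. With 1 start per gene the open share differed by 49.2 points, the width by 157 bp, and 56.9% of summits lay between the starts. Weighting to CpG classes gave 21.4 points, 0.62 and 137 bp. Merging peaks up to 100 bp apart gave 194 bp and 54.0%, starts at most 500 bp apart 52.0% and the other thresholded set 53.5%. Leaving out 1 replicate gave 46.5 to 48.1 points, folds of 0.46 to 0.59, widths of 124 to 134 bp and 53.9 to 54.7% of summits. The cause of these moves was not tested. All 30 recomputed differences in open share, fold and width kept the sign of the main value. The number of divergent regions ran from 699 (1 start per gene) to 1197 (replicated set), and the number of motif strings with a ratio above 5 to 4 from 4 to 7, with 6 in the main set. Depth is unknown, so a closed pair may only lie under the detection limit.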
